A study of Mus musculus with 24 samples.

Results

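The 10 genes followed here encode well-known enzymes that handle reactive oxygen in cells, measured across the series: the NRF2 targets Nqo1, Hmox1, Gclc, Gclm, Txnrd1 and Srxn1, and the superoxide and peroxide enzymes Sod1, Sod2, Cat and Gpx1. Members were chosen by name, as every probe that is not a control and whose gene name equals 1 of these symbols. This gave 10 of 34797 names and 12 of 55681 probes, since Cat and Hmox1 each have 2 probes. Each gene is given by its brighter probe where it has 2, and the other probe is given as a check. All 12 probes lay well above background on all 24 arrays, so no level below is only a bound.

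Mammary gland RNA of 24 female mice was measured, 1 mouse to an array, in 8 groups of 3. BALB/c mice were sham-treated or exposed over the whole body to 10 cGy of X-rays (low-dose ionizing radiation, LDIR) at 8 to 9 weeks of age, and glands were taken 2, 4 or 8 weeks later. SPRET/EiJ mice, which are inbred from Mus spretus of the wild, were treated in the same way and sampled at 4 weeks. The labels name no transgene and no other treatment, and the tissue is whole gland rather than a sorted cell type. The letters A, B and C name the mice of a group.

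NRF2 (gene Nfe2l2) is a transcription factor that is bound by KEAP1 and degraded in resting cells. Oxidants and electrophiles modify KEAP1, NRF2 then enters the nucleus, pairs with small MAF proteins and binds the antioxidant response element of its target genes. Superoxide from mitochondria or from NADPH oxidases is turned into hydrogen peroxide by the superoxide dismutases, and the peroxide is removed by catalase, glutathione peroxidases and peroxiredoxins, which draw on the glutathione and thioredoxin systems that NRF2 targets maintain.

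The probes behind the differences between strains are shown by their first 30 bases, with the position of the whole 60-base probe in the mouse genome build mm9 that the files use. The Gclc probe lies at chr9:77641296-77641355 on the plus strand and the Nqo1 probe at chr8:109912440-109912499 on the minus strand. The brighter Cat probe lies at chr2:103294487-103294546 and the other spans an exon junction at chr2:103297086-103300428, both on the minus strand. They are shown because these 2 Cat probes differed in direction between the strains.

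Gclc: agtgaactggcttgtacattttgaattctt

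Nqo1: taggtcatttatgcaatattcgccattttc

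Cat, brighter probe: tggtctggtatatatacaatacaacacaca

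Cat, other probe: aacagtgctaatgaagacaatgtcactcag

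The core of the antioxidant response element, TGACNNNGC, was searched on both strands from 250 bases before to 50 bases after the gene start, as the best-known site of NRF2 binding. It was the only motif searched. RefSeq sequences of the build GRCm38.p6 gave 10 such windows of 300 bases for 8 of the 10 members, and 4 of the 10 windows held the letters, against 12.4% of all 32851 windows. Counted by gene, 4 of 8 members held them in any window, against 14% of 27025 genes. The 4 matches are printed in the sense of the gene with the motif in capitals, where it reads as GCNNNGTCA because each match lay on the reverse strand. The matches begin 134 bases before the start in Gclm, 56 before in Sod1, 92 before in Txnrd1, where 1 of 3 windows held it, and 28 bases after the start in Srxn1. Nqo1, Sod2, Cat and Gpx1 had no match, which says only that these letters are not in this window, and Hmox1 and Gclc had no entry.

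Gclm, chr3:122245413-122245441: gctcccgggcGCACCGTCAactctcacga

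Sod1, chr16:90220696-90220724: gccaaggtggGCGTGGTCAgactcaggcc

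Txnrd1, chr10:82859104-82859132: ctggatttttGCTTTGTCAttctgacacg

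Srxn1, chr2:152105542-152105570: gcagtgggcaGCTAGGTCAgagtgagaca

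Levels are log2 intensities relative to the 75th percentile of the array, so that 0 is the 75th percentile itself, and a difference of 1 is a doubling of the signal. Levels of different probes are not compared, since brightness also depends on the probe. Between 57.1% and 72.6% of all probes lay well above background per array. On 3 arrays the mean level of 7 lymphocyte markers, among them Cd3e and Ms4a1, was 3.86 to 4.46, against -2.73 to -1.14 on the other arrays. These were BALB/c 8-week sham A, BALB/c 8-week LDIR B and SPRET/EiJ LDIR A. The same arrays had the lowest means of 7 white adipocyte markers, 4.49 to 5.32 against 6.03 to 6.96, and values without them are given beside the results that rest on them. The 7 epithelial, 7 white adipocyte and 6 macrophage markers were above background on every array.

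**Figure D1:**
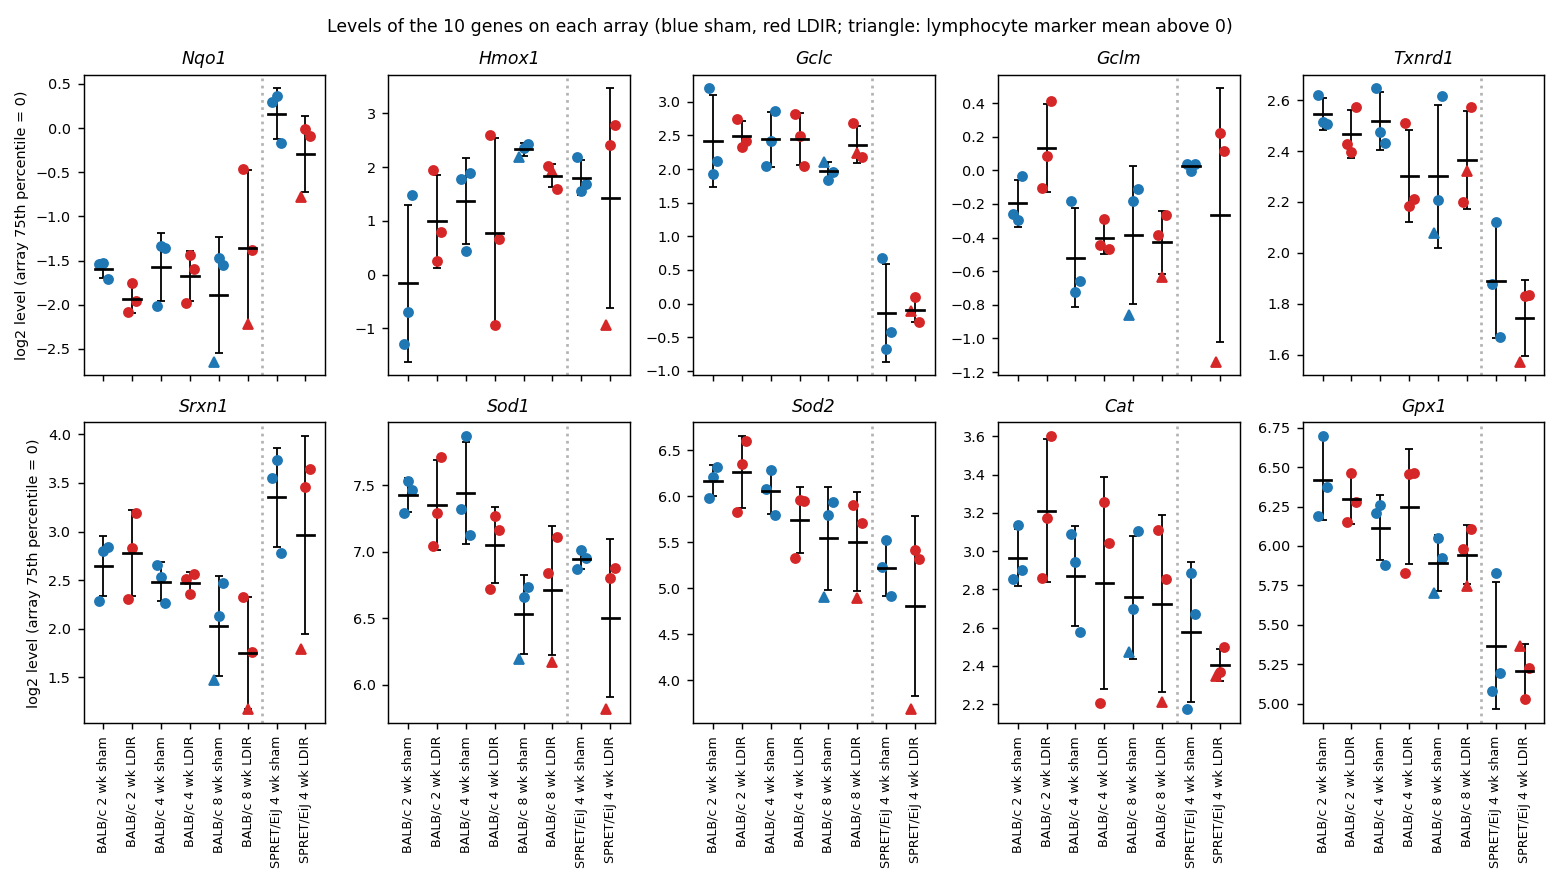
Log2 level of each of the 10 genes (y axis, relative to the 75th percentile of the array) in the 8 groups (x axis). Points are arrays, blue for sham and red for LDIR, triangles are the 3 arrays of high lymphocyte markers, the black line is the group mean and the whiskers are 1 SD of 3 arrays. Gclc lies between 1.84 and 3.20 in BALB/c and between -0.68 and 0.68 in SPRET/EiJ.

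The first question was whether the strains differ at baseline. Gclc, the catalytic subunit of the enzyme that limits glutathione synthesis, was 5.99-fold higher in sham BALB/c than in sham SPRET/EiJ glands, and Nqo1, a quinone reductase that is a classic NRF2 target, was 3.32-fold lower. These were the 2 of 10 members that passed limma's test with a p under 0.05 after Benjamini-Hochberg adjustment, as 18.8% of all probes did. The rule of the methods for strains, an unadjusted p under 0.001 with more than 1.5-fold, was applied to limma's p. The same pair passed it there, as 8.89% of probes did. With the unpaired test of the methods neither passed, at an unadjusted p of 0.00341 for Nqo1 and 0.00579 for Gclc. Both are NRF2 targets, and they differed in opposite directions. In whole tissue, fewer cells of a type and less RNA per cell cannot be told apart. The p-values set each difference against the spread between these mice, which includes that between their arrays.

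Gclc was at 2.05, 2.41 and 2.87 in BALB/c sham mice A, B and C at 4 weeks, and at 0.68, -0.68 and -0.42 in the SPRET/EiJ sham mice. Every BALB/c mouse lay far above every SPRET/EiJ mouse. The difference was 2.58 on the log2 scale (SE 0.41, 95% interval 1.60 to 3.57, adjusted p = 0.00779 in limma). The LDIR mice, which are other animals, gave 2.81, 2.50 and 2.04 in BALB/c and -0.10, 0.10 and -0.27 in SPRET/EiJ. Again the groups were far apart, by 2.54 (SE 0.28, adjusted p = 0.00299). Gclc was at 1.84 to 3.20 (median 2.28) over all 18 BALB/c arrays and at -0.68 to 0.68 over the 6 SPRET/EiJ arrays, without overlap at any week or exposure. Gclm, the modifier subunit of the same enzyme, went the other way, with means of -0.52 ± 0.30 in BALB/c and 0.02 ± 0.02 in SPRET/EiJ (SD, n = 3), but its difference of -0.54 did not pass (adjusted p = 0.114 in limma).

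Nqo1 was at -2.01, -1.34 and -1.35 in the BALB/c sham mice at 4 weeks and at 0.30, 0.36 and -0.17 in the SPRET/EiJ sham mice. All 3 SPRET/EiJ mice were above all 3 BALB/c mice. The difference was -1.73 (SE 0.26, 95% interval -2.37 to -1.09, adjusted p = 0.00691 in limma). After LDIR, Nqo1 was at -1.99, -1.44 and -1.60 in BALB/c and at -0.78, -0.01 and -0.09 in SPRET/EiJ. The groups did not overlap here either. The difference was -1.38 (SE 0.30, adjusted p = 0.033 in limma), which no longer passed the rule of the methods with limma's p. This call was lost when BALB/c LDIR A, B or C or SPRET/EiJ LDIR B or C was left out (adjusted p from 0.0854 to 0.126), and it held without SPRET/EiJ LDIR A, the array of high lymphocyte markers (adjusted p = 0.0103). Over all weeks the strains overlapped in Nqo1, with 18 BALB/c arrays at -2.65 to -0.46 and 6 SPRET/EiJ arrays at -0.78 to 0.36, since BALB/c 8-week LDIR A was at -0.46.

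The remaining members did not pass in the sham comparison, although 7 of 10 in all had an unadjusted p under 0.05. The share of all probes at that threshold is not given. Gclm, with the highest p of the 7 (0.0317 in limma), ranked 15435 among 55681 probes, so many other probes passed it too. Sod2, the mitochondrial superoxide dismutase, was 0.83 higher in BALB/c (adjusted p = 0.0517 in limma), and Gpx1, the glutathione peroxidase of the cytosol, 0.75 higher (adjusted p = 0.093). Txnrd1, which keeps thioredoxin reduced, was 0.63 higher (adjusted p = 0.063). Srxn1, which repairs overoxidized peroxiredoxins, differed by -0.87 (BALB/c minus SPRET/EiJ, adjusted p = 0.0892). Sod1, the cytosolic superoxide dismutase, differed by 0.50 (adjusted p = 0.199) and Hmox1, which breaks down heme, by -0.44 (adjusted p = 0.544).

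In the LDIR mice the 10 members again gave 2 calls, Gclc and Nqo1, where 11.1% of probes passed. The rule of the methods with limma's p gave 1 call, where 5.67% of probes passed. Gpx1 was 1.04 higher in BALB/c (SE 0.27, adjusted p = 0.0543) and Txnrd1 0.56 higher (adjusted p = 0.181). Without SPRET/EiJ LDIR A, 4 members passed, as Gpx1, higher in BALB/c, and Srxn1, lower in BALB/c, joined Gclc and Nqo1. The share of all probes without that array is not given, so this count cannot be set against it. The median over the 10 members was 0.40 in sham and 0.49 in LDIR mice, against -0.08 and -0.06 over all probes. It did not hold with slide as a block over 24 arrays, where it was -0.11 with 3 members higher and 7 lower in sham mice and 0.09 with 5 and 5 in LDIR mice, and it was 0.07 in sham mice with the mean of a gene's probes.

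The probes of Cat, catalase, did not go the same way. The brighter probe was at 3.09, 2.94 and 2.58 in sham BALB/c and at 2.17, 2.88 and 2.67 in sham SPRET/EiJ. These values overlapped, and the difference was 0.29 (adjusted p = 0.491 in limma). The other probe was at 1.55, 1.12 and 0.78 in BALB/c and at 2.02, 2.53 and 2.68 in SPRET/EiJ, which is a difference of -1.26 (SE 0.28, adjusted p = 0.0255). The LDIR mice gave 0.43 for the brighter and -1.17 for the other probe (adjusted p = 0.47 and 0.193). No strain difference in Cat RNA is therefore given. Both Hmox1 probes were lower in sham BALB/c, by -0.44 and -0.29, and neither passed. In LDIR mice they went opposite ways, by -0.64 for the brighter and 0.17 for the other, and neither passed. Gclc and Nqo1 have 1 probe each, so that no other probe checks them, and the part of Mus spretus sequence differences under these probes was not tested.

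Slide and cell composition moved with strain. No slide held sham mice of both strains at 4 weeks, and among the LDIR mice strain and slide cannot be told apart. The slide of the SPRET/EiJ mice also held BALB/c 8-week LDIR B and C, whose Gclc levels were 2.23 and 2.17 and whose Nqo1 levels were -2.22 and -1.39, both within the BALB/c range and outside that of SPRET/EiJ. With slide as a block over all 24 arrays, Gclc differed by 2.53 (adjusted p = 0.0661) and Nqo1 by -2.86 (adjusted p = 0.0242) in sham mice. In LDIR mice the same fit gave 2.07 for Gclc, which no longer passed (adjusted p = 0.0827), and -2.72 for Nqo1 (adjusted p = 0.0112). The 7 epithelial markers had a mean of 3.18 (2.61 to 3.60) in sham BALB/c and 1.89 (0.40 to 2.71) in sham SPRET/EiJ at 4 weeks, and the white adipocyte markers 6.69 and 6.35. Their part in the strain differences was not tested.

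**Figure D2:**
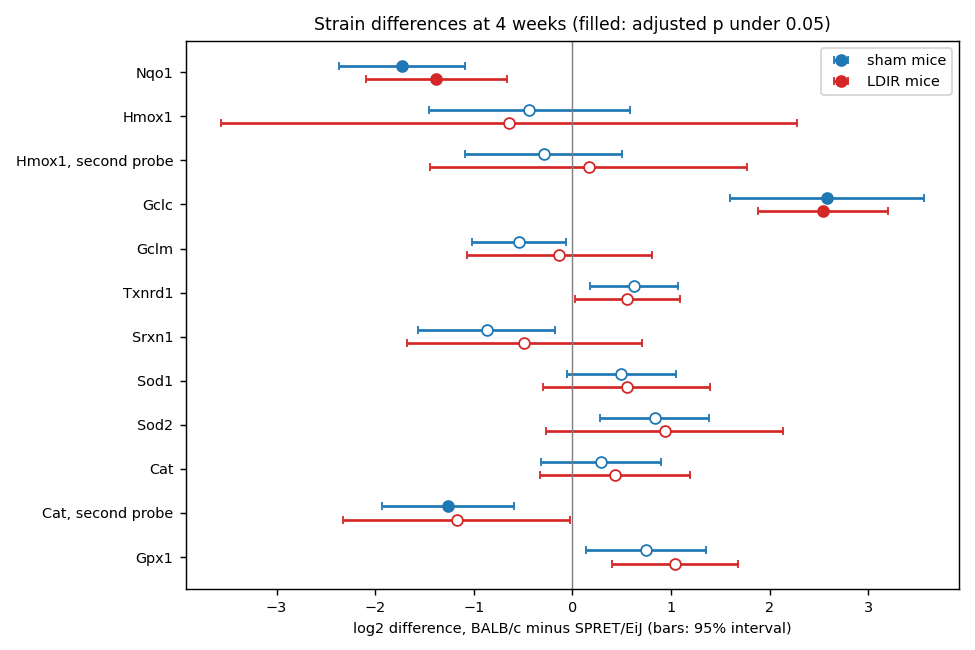
Difference between BALB/c and SPRET/EiJ at 4 weeks (x axis, log2, BALB/c minus SPRET/EiJ) for the 12 probes (y axis), blue for sham and red for LDIR mice, with 95% intervals. Filled points have an adjusted p under 0.05, which are Gclc at 2.58 and 2.54, Nqo1 at -1.73 and -1.38 and, in sham mice, the other Cat probe at -1.26.

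Other genes of the pathway were read from lists, counting those above background on at least 12 arrays. The counts use the adjusted threshold, which 18.8% of all probes passed in sham and 11.1% in LDIR mice, both directions together. Of 10 regulators of NRF2, 0 were higher and 2 lower in sham BALB/c: Maff, a small MAF partner (-1.58, adjusted p = 0.0304 in limma), and Sqstm1, the autophagy receptor p62 that sequesters KEAP1 (-1.21, adjusted p = 0.018). Nfe2l2 itself (-0.40, adjusted p = 0.198), Keap1 (-0.07) and the repressor Bach1 (0.06) did not pass. Of 23 other NRF2 targets, 2 were higher and 4 lower. Abcc3, which exports glutathione and glucuronide conjugates, was 2.78 higher, whereas Blvrb, a biliverdin reductase, was at -1.93, the epoxide hydrolase Ephx1 at -1.86 and the ferritin light chain Ftl1 at -1.48. Of 27 other antioxidant enzymes, 5 were higher and 6 lower, with Gpx8, a peroxidase of the endoplasmic reticulum, at 3.28, mitochondrial thioredoxin Txn2 at 1.51, glutaredoxin Glrx at -1.80 and the peroxiredoxin Prdx6 at -1.53. Of 12 enzymes that produce oxidants, 1 was higher and 4 lower, with the epithelial oxidase Duox1 at 2.33, xanthine dehydrogenase Xdh at -2.58, and Ncf1, a subunit of the phagocyte oxidase, at -1.55. In the LDIR mice the same lists gave 0 higher and 1 lower, 1 and 1, 3 and 1, and 1 and 2, which without SPRET/EiJ LDIR A became 0 and 2, 2 and 6, 3 and 6, and 1 and 3. The share of all probes without that array is not given beside these last counts, so they cannot be set against it.

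The next question was whether a dose of 10 cGy changed these genes weeks later. None of the 10 members passed at 2, 4 or 8 weeks in BALB/c or at 4 weeks in SPRET/EiJ. At the adjusted threshold, 0% of all probes passed in each of these 4 comparisons. The rule of the methods for LDIR, an unadjusted p under 0.05 with more than 1.5-fold, was again applied to limma's p. It also gave 0 of 10 members each time, where 3.05%, 4.83%, 1.92% and 2.21% of probes passed. The lowest and highest member differences were -0.34 and 1.16 at 2 weeks, -0.59 and 0.13 at 4 weeks, -0.49 and 0.53 at 8 weeks, and -0.46 and 0.05 in SPRET/EiJ. The member medians at 4 and 8 weeks were -0.07 and 0.01, against 0.02 and -0.14 over all probes. At 8 weeks 5 members were higher and 5 lower. With slide as a block or within the second slide 8 were higher and 2 lower, with a median of 0.31. Those values rest on a single LDIR mouse, since that slide held only A of the 8-week LDIR group. In limma's main fits of the 4 comparisons, 0 members had an unadjusted p under 0.05. The methods' t-test gave Nqo1 at 2 weeks (unadjusted p = 0.04) and Hmox1 at 8 weeks (unadjusted p = 0.0289). Both were under 1.5-fold, so with its fold rule that test also gave 0.

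Hmox1 spread most among the members. At 2 weeks it was at -1.28, -0.69 and 1.48 in the sham mice and at 1.94, 0.24 and 0.80 in the LDIR mice. Sham mouse C lay within the LDIR range and the other sham mice below it. The difference of 1.16 had an SE of 0.79 and a 95% interval from -0.75 to 3.07 (limma, adjusted p = 0.869). Without sham C it was 1.98 (unadjusted p = 0.0118, adjusted p = 0.767). The other Hmox1 probe was at -1.56, -1.47 and -0.71 in sham and at -0.77, -1.22 and -0.90 in LDIR mice, a difference of 0.28. At 4 weeks the probes went opposite ways, by -0.59 for the brighter and 0.22 for the other, and neither passed. At 8 weeks Hmox1 was at 2.19, 2.36 and 2.43 in sham and at 2.01, 1.92 and 1.60 in LDIR mice. There all LDIR mice were below all sham mice, by -0.49 on average (95% interval -1.06 to 0.09, adjusted p = 1 in limma), and the same order held for the 4 mice without high lymphocyte markers. On the other probe the groups overlapped, at -0.46, -0.36 and -0.14 in sham and -0.36, -0.86 and -0.98 in LDIR mice, a difference of -0.42.

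Nqo1 at 2 weeks was at -1.54, -1.53 and -1.71 in sham and at -2.08, -1.76 and -1.96 in LDIR mice. The LDIR mice were all lower, by -0.34 (SE 0.15, 95% interval -0.71 to 0.03), and this did not pass (limma, adjusted p = 0.869). At 4 weeks the Nqo1 groups overlapped, with a difference of -0.11. At 8 weeks Nqo1 was at -2.65, -1.48 and -1.55 in sham and at -0.46, -2.22 and -1.39 in LDIR mice, where the lowest of each group was the array of high lymphocyte markers and LDIR A the highest of all BALB/c arrays. With slide as a block, or within the slide that held the 3 sham mice and LDIR A, the difference was 1.43 in place of 0.53, and it did not pass (unadjusted p = 0.0832 and 0.101 in limma). Over all 24 arrays with slide as a block the same value passed the rule of the methods (unadjusted p = 0.00605, adjusted p = 0.994).

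In BALB/c the glutathione and thioredoxin genes differed from sham by 0.40 or less in size at each week, before slide was blocked. Gclc differed by 0.08, 0.01 and 0.40 at 2, 4 and 8 weeks. Gclm differed by 0.33, 0.12 and -0.04, Txnrd1 by -0.08, -0.22 and 0.06, and Srxn1 by 0.14, -0.01 and -0.28. For Sod1 the differences were -0.08, -0.39 and 0.18, and for Sod2 0.09, -0.31 and -0.04. Gpx1 differed by -0.12, 0.13 and 0.05. Cat differed by 0.25, -0.035 and -0.034 on its brighter probe and by 0.24, -0.44 and 0.065 on the other. With slide as a block, or within the second slide, Gclc went from 0.01 to -0.42 at 4 weeks and from 0.40 to 0.715 at 8 weeks. Srxn1 at 4 and 8 weeks turned to 0.21 and 0.30. These slide values rest on a single mouse of a group, as the second slide held only sham C at 4 weeks and only LDIR A at 8 weeks. At 8 weeks, without the arrays of high lymphocyte markers, Gclc differed by 0.53, Nqo1 by 0.59, Sod1 by 0.28, Sod2 by -0.06 and Srxn1 by -0.26. None of these passed, and with 3 mice a group differences of this size were not detectable.

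The LDIR differences were also averaged over the 3 weeks of BALB/c. The average gave tighter intervals than any single week, except for Nqo1 and Hmox1, which each had a narrower interval in a single week. With the weeks averaged, 0 of 10 members passed at the adjusted or at the unadjusted threshold, where 0% and 3.25% of probes did. Gclc differed by 0.16 (95% interval -0.23 to 0.55), Txnrd1 by -0.08 (-0.29 to 0.14), Gpx1 by 0.02 (-0.24 to 0.28) and Hmox1 by 0.03 (-0.96 to 1.01). The intervals of all members but Hmox1 held no change of 1.5-fold, among them Nqo1 (-0.45 to 0.51) and Sod2 (-0.49 to 0.31). The differences after LDIR did not differ between weeks for any member (0% of probes at the adjusted and 3.74% at the unadjusted threshold, 0 members at either). This does not show that the weeks responded alike.

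In SPRET/EiJ 9 of 10 members had lower means after LDIR, with a median of -0.34 against 0.03 over all probes. This rested on LDIR A, the array of high lymphocyte markers. Hmox1 was at -0.94, 2.42 and 2.78 in LDIR mice A, B and C and at 2.18, 1.55 and 1.68 in sham mice. Without LDIR A its difference turned from -0.39 to 0.79 (unadjusted p = 0.0334, adjusted p = 1 in limma). Sod2 was at 3.69, 5.42 and 5.32 and at 5.23, 5.52 and 4.92, and Srxn1 at 1.79, 3.46 and 3.64 and at 3.55, 3.73 and 2.78 in LDIR and sham mice. For both, mouse A was the lowest of 6 and the other LDIR mice lay within the sham range. Without it 5 members were higher and 5 lower. The test of whether LDIR differences themselves differed between strains gave 0 members, where 0% and 3.6% of probes passed at the adjusted and unadjusted thresholds, with member values from -0.21 to 0.41.

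**Figure D3:**
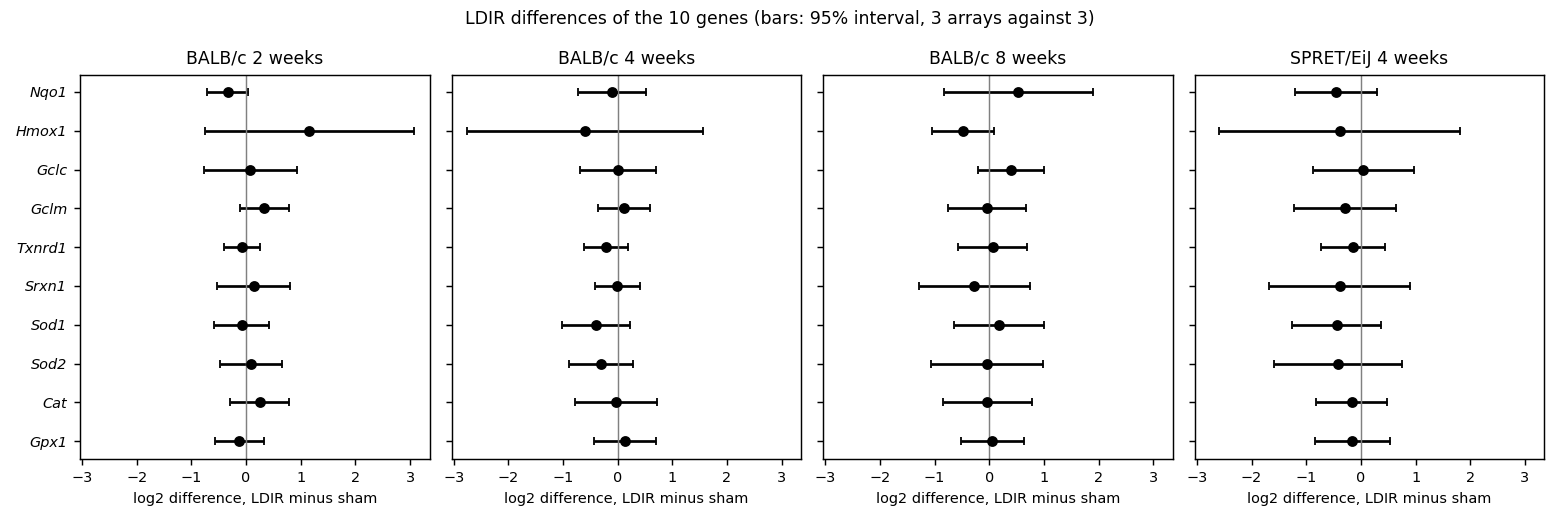
LDIR minus sham differences (x axis, log2) of the 10 genes (y axis), 1 panel for each comparison, with 95% intervals. Each interval includes 0. The widest are those of Hmox1, as at 2 weeks with -0.75 to 3.07.

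The pathway lists gave no gene at the adjusted threshold after LDIR. By the rule of the methods 2 genes passed, both at 4 weeks in BALB/c, where 4.83% of all probes passed. Both were lower, Maff by -0.66 (unadjusted p = 0.0294 in limma) and Gpx8 by -1.15 (unadjusted p = 0.0267). They are named after their values were seen. In the order of the BALB/c weeks, Nfe2l2 differed by -0.09, 0.04 and -0.06, with -0.22 for SPRET/EiJ, and Keap1 by 0.14, -0.22, -0.19 and -0.03. Macrophage markers, which share cells with the phagocyte oxidase genes, had means of 1.46 (0.86 to 1.82) in sham and 2.34 (2.06 to 2.67) in LDIR BALB/c at 4 weeks. The 12 enzymes that produce oxidants were all higher there, by 0.02 to 0.58, where 52.1% of all probes were higher, and none passed. Slide differed too, as the second slide held all LDIR mice of that week but only sham C. The part of the macrophage markers or of slide in this was not tested.

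Last, BALB/c levels were compared across the weeks with both exposures together. Sod1 and Srxn1 fell with time, and they were the 2 of 10 members that passed at the adjusted threshold, where 20.4% of probes did. Sod1 had means of 7.39 ± 0.23, 7.25 ± 0.37 and 6.62 ± 0.37 at 2, 4 and 8 weeks (SD, n = 6). It fell by 0.77 on the log2 scale from 2 to 8 weeks (adjusted p = 0.024, F-test in limma). Srxn1 had means of 2.71 ± 0.35, 2.48 ± 0.14 and 1.89 ± 0.51 (SD, n = 6). It fell by 0.82 (adjusted p = 0.0392, F-test in limma). At the unadjusted threshold 6 members passed, where 33.9% of probes did, and the member median was -0.36 against -0.01 over all probes.

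Among the others Sod2 had means of 6.22 ± 0.28, 5.90 ± 0.32 and 5.53 ± 0.49 (SD, n = 6), a difference of -0.69 (adjusted p = 0.101 in limma), and Gpx1 6.36 ± 0.20, 6.18 ± 0.27 and 5.92 ± 0.16, a difference of -0.44 (adjusted p = 0.108). Hmox1 had the largest difference in size and was higher at 8 weeks, with medians of 0.52, 1.23 and 2.10, and ranges of -1.28 to 1.94, -0.94 to 2.60 and 1.60 to 2.43. Its difference of 1.67 did not pass (adjusted p = 0.108). On the other Hmox1 probe the difference was smaller, at 0.58, and did not pass either (adjusted p = 0.0948). Cat differed by -0.35 on its brighter and 0.03 on its other probe, and neither passed. Gclc, Nqo1 and Txnrd1 moved little, with means of 2.46, 2.45 and 2.16 for Gclc, -1.76, -1.62 and -1.62 for Nqo1, and 2.51, 2.41 and 2.33 for Txnrd1.

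The week results rested on few arrays and moved with other measures. Both BALB/c arrays of high lymphocyte markers were 8-week arrays. Sod1 was at 6.17 and 6.19 there and at 6.66 to 7.87 on the other 16 BALB/c arrays, and Srxn1 was at 1.17 and 1.47 against 1.77 to 3.19. Without these arrays 0 members passed, with Sod1 at -0.55 (adjusted p = 0.0781) and Srxn1 at -0.54 (adjusted p = 0.112). Without BALB/c 8-week LDIR B alone neither passed (Sod1 at -0.64 with an adjusted p of 0.0628, Srxn1 at -0.67 with 0.0996). Sod1 passed without any other single array, whereas Srxn1 passed only without 2-week sham A, 2-week LDIR A, 4-week sham C, 8-week sham C or 8-week LDIR A, and its adjusted p ran from 0.0162 to 0.0996 over the 18 arrays left out in turn. Slide went largely with week, and with slide as a block over 24 arrays Sod1 differed by -0.23 and Srxn1 by -0.21 (adjusted p = 0.846 and 1). The mean of the white adipocyte markers went from 6.77 (sham) and 6.75 (LDIR) in the 2-week mice through 6.69 and 6.44 to 5.98 and 5.97 in the 8-week mice. Their part in the fall was not tested.

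The lists were counted across the weeks at the adjusted threshold too, which 20.4% of all probes passed. Of the 10 regulators, 2 rose and 3 fell from 2 to 8 weeks: Maff (0.85) and Sqstm1 (0.28) rose, and Nfe2l1 (-1.17), a relative of NRF2 that controls proteasome genes, Keap1 (-0.55) and Cul3 (-0.41), the ubiquitin ligase scaffold that KEAP1 brings to NRF2, fell. Nfe2l2 was at -0.23 and did not pass (adjusted p = 0.508 in limma). Of 23 other targets 2 rose and 6 fell, among them malic enzyme Me1 (-1.99), Gsta3 (-1.28) and Aox1 (-1.19). Of 27 other antioxidant enzymes 1 rose, the metallothionein Mt2 (1.11), and 7 fell, including Gpx4 (-0.89), the peroxidase of membrane lipids, and mitochondrial Prdx3 (-0.67). Of 12 enzymes that produce oxidants 3 rose and 0 fell, among them Ncf1 (1.72) and Aox3 (0.72). The macrophage markers had means of 1.43 in sham and 1.49 in LDIR mice at 2 weeks, and 2.16 and 1.88 at 8 weeks, and the epithelial markers 2.90 and 2.67, and 3.76 and 3.70. Their part in these changes was not tested. Without the arrays of high lymphocyte markers the lists gave 2 up and 3 down, 2 and 1, 2 and 3, and 5 and 1. The share of all probes in that setting is not given beside these counts.

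Within BALB/c the members differed in how closely they followed the white adipocyte markers. Over the 16 BALB/c arrays without high lymphocyte markers, the level of Sod2 had r = 0.88 (rho = 0.90) with the mean of the 7 markers, Sod1 0.80 (0.82), Gpx1 0.79 (0.82), Cat 0.70 (0.67) and Srxn1 0.64 (0.78). Hmox1 ran the other way at -0.55 (-0.66). Gclm (0.34), Gclc (-0.255), Nqo1 (-0.10) and Txnrd1 (0.09) stayed below these. Without the 2 arrays farthest from the median marker level, Sod2 was at 0.80, Sod1 at 0.82, Gpx1 at 0.71, Srxn1 at 0.77, Cat at 0.52 and Hmox1 at -0.44. Other marker lists moved along with these. The mean of 5 brown adipocyte markers had r = 0.66 with the white list on these 16 arrays, and Srxn1 (0.74), Sod2 (0.76) and Sod1 (0.73) followed it about as closely, whereas Gpx1 (0.27) did not. The brown list had means of 1.21 in sham and 1.61 in LDIR mice at 2 weeks and -0.51 and -0.79 at 8 weeks. Sod1 had r = -0.75 with the macrophage markers, and Srxn1 -0.71 with the epithelial markers. These correlations are descriptions over arrays that share slides, weeks and the scaling of each array, with no test.

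Within slides the picture held for some members. On the 8 BALB/c arrays of the first slide r was 0.71 for Sod2 and 0.65 for Gpx1, and on the 7 of the second slide 0.84 and 0.75. Sod1 had 0.41 and 0.82, Cat 0.46 and 0.83. Srxn1 had 0.78 and -0.06, and Hmox1 0.10 and -0.83, so neither held on both slides. Gclc had -0.855 and -0.03, Nqo1 0.09 and 0.47, Gclm 0.22 and -0.08, and Txnrd1 -0.11 and -0.58. The low values of Gclc and Txnrd1 over all 16 arrays thus hid a stronger inverse value on 1 slide. The arrays of high lymphocyte markers, which have the lowest adipocyte markers, also had the lowest Sod2 of their strain, at 4.90 on both BALB/c arrays against 5.33 to 6.60 on the other 16, and at 3.69 on the SPRET/EiJ array against 4.92 to 5.52 on the other 5. Sod1, Srxn1 and Nqo1 were likewise lowest on these arrays in both strains. Gclc was not, at 2.10 and 2.23 on these BALB/c arrays and 1.84 to 3.20 on the others.

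**Figure D4:**
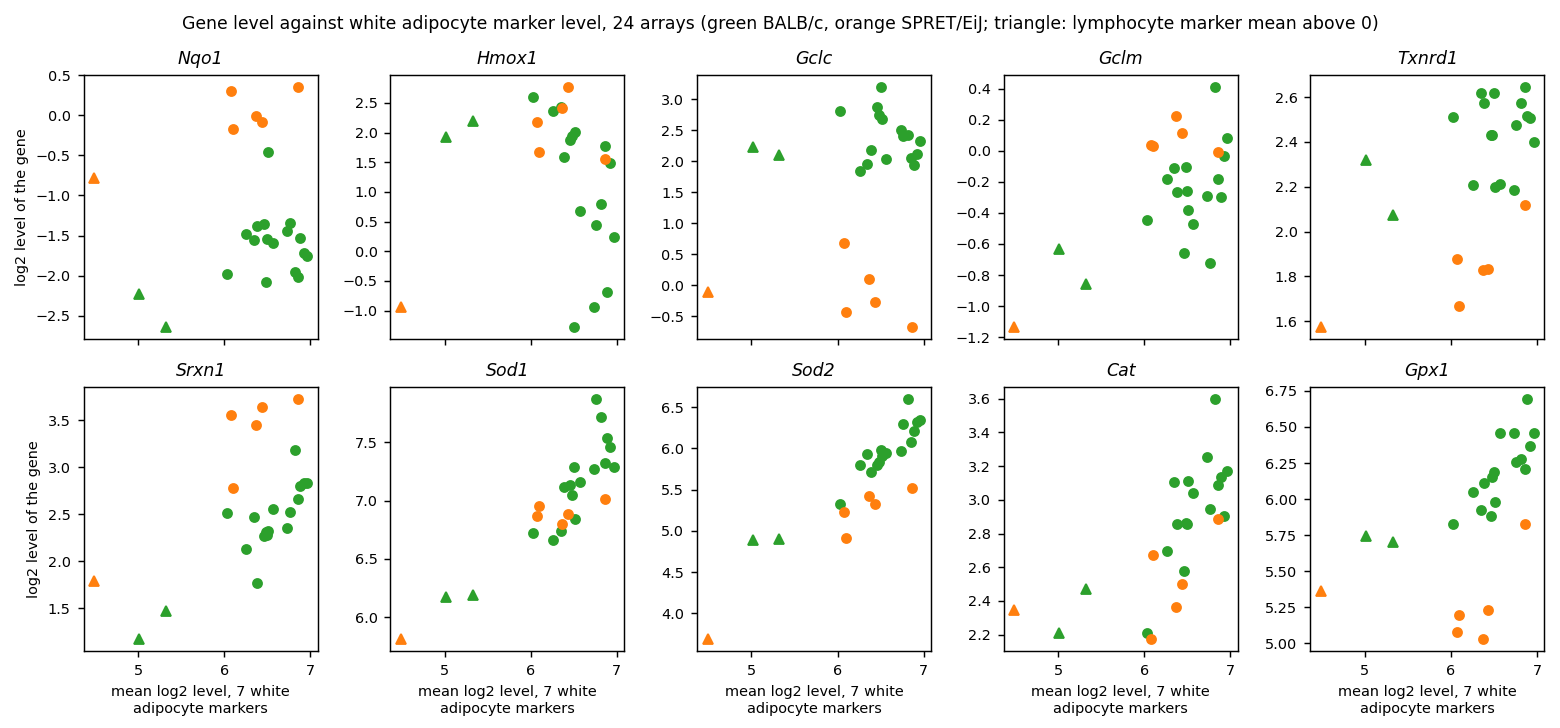
Log2 level of each gene (y axis) against the mean log2 level of 7 white adipocyte markers (x axis) on 24 arrays, green for BALB/c and orange for SPRET/EiJ, with triangles for the 3 arrays of high lymphocyte markers. Sod2 follows the markers over the 16 other BALB/c arrays (r = 0.88), whereas Gclc had -0.255 and Nqo1 -0.10 over them. Gclc had -0.855 on the first slide and -0.03 on the second.

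The genes most like each member were sought over the 18 BALB/c arrays among 31896 probes. Sod1 was most like Nr1h3 (r = 0.985, and 0.97 without the 2 arrays farthest out), which encodes the oxysterol receptor LXR alpha, and Etfb (0.98), a subunit of the mitochondrial electron transfer flavoprotein. Sod2 was most like Mocs2, Adora1 and Acaa2 (each 0.98), the last an enzyme of mitochondrial fatty acid oxidation. Srxn1 was most like Gys2 (0.98), a glycogen synthase, and Brp44l (0.97), a subunit of the mitochondrial pyruvate carrier. Gpx1 was most like Cd151 (0.94). For Gclc, Nqo1, Gclm and Txnrd1 the nearest genes were less close, at 0.87 for 4933412E12Rik, 0.87 for Trib1, 0.86 for Slc35b4 and 0.82 for Tmem97. Hmox1 was nearest to Dcaf5 (0.92) and Cat to Tmem111 (0.90). Among the members themselves, Sod1 and Sod2 had r = 0.90, Srxn1 and Sod2 0.89 and Sod2 and Cat 0.85 over these 18 arrays, while Hmox1 and Gpx1 had -0.74. Without the 2 arrays of high lymphocyte markers, on which Sod1, Sod2 and Srxn1 were all low, these were 0.79, 0.73, 0.80 and -0.74, Nr1h3 had 0.97 with Sod1, Acaa2 0.95 with Sod2, Gys2 0.95 with Srxn1 and Cd151 0.91 with Gpx1.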

How the data were processed

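Mammary RNA of 24 mice was hybridised singly to 1-colour Agilent arrays on 3 slides of 8. Per the file headers, the authors deposited background-subtracted, detrended intensity values. The authors also deposited log2 values scaled to the 75th percentile, of which 99.812% lay within 0.01 of those used here after centring each probe on its median. Of 59305 non-control spots per array, 3777 outliers over all arrays were left out and 0 were saturated. Here the log2 intensity was averaged over the spots of a probe and the 75th percentile subtracted. Each comparison was fitted to its own arrays in limma 3.58.1 (R 4.3.3), with Benjamini-Hochberg adjustment over all probes, and tested on simulated data. Week and interaction tests used all arrays concerned. Figures were drawn with matplotlib 3.10.9. Array number, 3 per group, limits precision.

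Members and lists were chosen with earlier results of these data known. The genes named are the members, at most 3 rising and 3 falling genes of each list past the threshold with Nfe2l2, Keap1 and Bach1, and the most alike genes; some list genes are not reported here by name. The labels do not say whether replicate letters pair mice. Same-letter deviations all correlated above 0.1 only at 2 weeks (0.141, 0.442 and 0.101), and at 8 weeks they gave -0.559, -0.567 and 0.544. Main tests were unpaired. With a block for letter, Nqo1 and Hmox1 at 2 weeks did not pass either (unadjusted p = 0.0781 and 0.223 in limma). Alternatives were normexp (offset 50), quantile scaling, the authors' log2 values, keeping outliers, testing detected probes alone, a block for slide or for replicate letter, the methods' t-test, 1 fit of all 24 arrays and each array left out. Leaving out the arrays of high lymphocyte markers was added after seeing the data.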

Additional observations from a re-analysis of the deposited data

How the results depend on the processing

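Members past the threshold (2 between sham strains) numbered 6 with normexp, 5 with quantile scaling or detected probes only, 4 with all 24 arrays or slide as a random block, and 1 with slide as a block over 24 arrays or by the methods' t-test. Between LDIR strains (2) they were 4 with all 24 arrays, 1 with slide as a block over 24 arrays or by the methods' t-test, 1 to 4 with each array left out, and 4 without the arrays of high lymphocyte markers. After LDIR (0) they were 1 at 2 weeks with normexp and 0 to 1 with each array left out, where Hmox1 was the gene (1.98 without sham C), 1 at 8 weeks with slide as a block over 24 arrays (Nqo1), and, in SPRET/EiJ, 0 to 1 with each array left out and 1 without the array of high lymphocyte markers, where Hmox1 reversed to 0.79 (-1.07 to 0.79 with each array left out). Across weeks (2) they were 1 with all 24 arrays, 0 with slide as a block, 0 to 2 with each array left out and 0 without the arrays of high lymphocyte markers. With replicate letter as a block, 1 member passed across weeks (Sod1, adjusted p = 0.0309, with 0.072 for Srxn1) and 3 passed between sham strains, where Sod2 was added (adjusted p = 0.0474). The cause of these shifts was not tested.

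Counts over all probes moved too. Between sham strains 10489 became 11461 with normexp, 11571 with quantile scaling, 11955 with detected probes only and 11602 with all 24 arrays. It became 12731 with slide as a random block, 8120 with the replicate block, 1727 with slide as a block over 24 arrays and 6292 by the methods' t-test. Between LDIR strains 6182 became 2125 and 3853 in these last 2 settings, 4108 with the replicate block and 9752 with all 24 arrays. After LDIR, 1699, 2690, 1068 and 1230 probes at 2, 4 and 8 weeks and in SPRET/EiJ became 281, 597, 138 and 131 with normexp, and 909, 1382, 622 and 751 by the methods' t-test. Across weeks 11346 became 1018 with slide as a block and 20393 with normexp. With 3 mice a group and 1 probe for most members, small differences could not be detected.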
